A study of Homo sapiens with 8 samples.

Results

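The 10 genes described here encode secreted signals that draw or instruct white blood cells. They are the neutrophil chemokines CXCL1, CXCL2, CXCL3, CXCL5, CXCL6 and CXCL8, the monocyte chemokine CCL2, the chemokine CCL20 and the cytokines IL6 and LIF. They were found by gene symbol in the annotation supplied with the series, and all 10 were measured, each through 1 transcript cluster (a group of probes that reports 1 gene), among 17687 gene symbols in all. RNA came from 8 tumours that had grown in nude mice from implanted SK-OV-3, an established line of human ovarian cancer. In 4 tumours the cells carried pIND_BORA, a vector that overexpresses BORA, a cofactor of mitotic kinases, and in the other 4 they carried the empty vector pIND_EV. The cell line and the host strain were the same in both groups, and each tumour had 1 array. Whether each tumour had its own host animal, and how many transfected pools were used, is not in the labels, so a p-value here speaks only for the spread among these 8 samples, part of which may be technical. Nude mice have no functional thymus and few mature T cells, but they keep neutrophils, monocytes and macrophages.

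CXC chemokines with the motif Glu-Leu-Arg (ELR) before their first cysteines act on the receptors CXCR1 and CXCR2 and recruit neutrophils. CCL2 acts on CCR2 of monocytes, and CCL20 acts on CCR6 of dendritic cells and lymphocytes. IL6 and LIF bind their own receptor chains, which pair with the shared subunit gp130 (gene IL6ST) and signal through JAK kinases and STAT3. Many of these genes are switched on by NF-kB after IL-1 or TNF signals, and carcinoma cells can secrete them. Mice have no orthologue of CXCL8.

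All values are deposited signals read as log2, and a difference is BORA minus EV on that scale. A signal is called above background where it exceeds a cutoff set in each array by its negative control probes (their 95th percentile, 7.62 to 8.24). EV replicate 1 held an unusually high signal of squamous epithelial genes, with a summed level of 18.30 over 8 markers against 13.12 to 14.02 in EV replicates 2 to 4, so the 10 genes are compared over 8 arrays and again over the 7 arrays without it. The BORA transcript itself was at 12.57, 12.55, 12.91 and 13.001 in BORA replicates 1 to 4 and at 6.16, 6.15, 6.89 and 7.32 in EV replicates 1 to 4. BORA replicate 1 therefore carried as much BORA transcript as BORA replicate 2. BORA replicate 1 was the lowest BORA tumour for 8 of the 10 genes, by gaps of differing size given below. The reason was not tested. The tumours are bulk samples, in which more cells of a type and more RNA per cell cannot be told apart.

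Of the 10 genes, 8 had higher mean signals in BORA tumours: CXCL8, CXCL1, CXCL2, CXCL3, CCL20, CCL2, IL6 and LIF. The differences ran from 1.02 for LIF to 3.22 for CCL20, which are folds of 2.03 and 9.33. CXCL5 and CXCL6 stayed below background in all 8 tumours. None of the 10 passed limma's test over all 17709 clusters (0 of 10 at a Benjamini-Hochberg adjusted p under 0.05, where 0.102% of all clusters were higher and 0% lower), and the smallest adjusted p was 0.187. At an unadjusted p under 0.05 in limma, 8 of 10 were higher, against 7.37% of all clusters (7.17% were lower), and that count was 5 without BORA replicate 3. The median difference of the 10 genes was 1.52, where that of all clusters was -0.026.

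**Figure D1:**
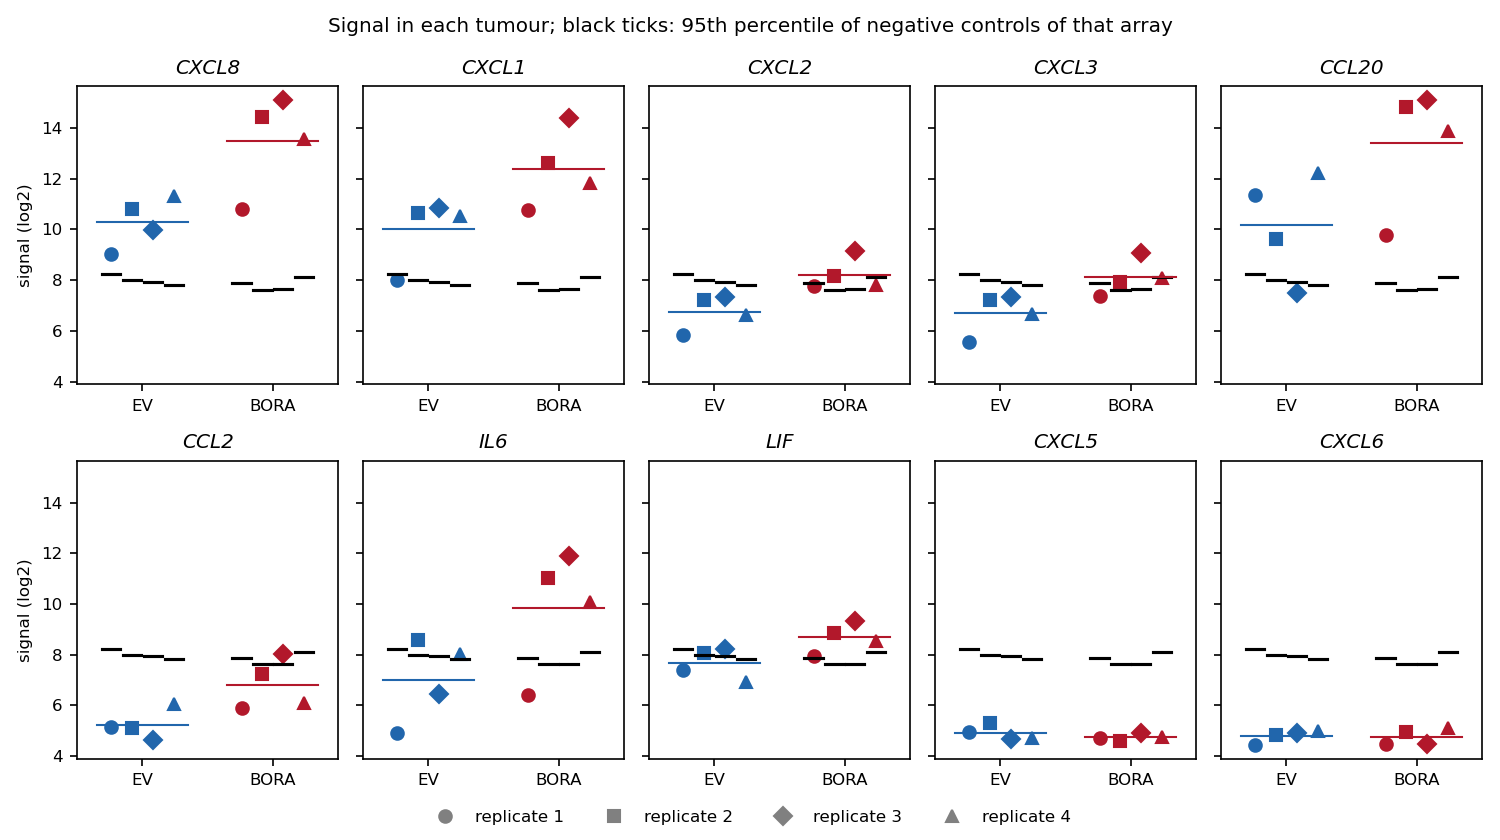
Signal (log2, vertical axis) of the 10 genes in the 4 EV and 4 BORA tumours, with replicates marked by shape, group means as coloured lines and the negative control percentile of each array as a black tick. For 8 genes BORA replicates 2 to 4 lie above every EV tumour, while BORA replicate 1 (circle) lies near the EV tumours; CXCL5 and CXCL6 lie below the ticks throughout.

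CXCL8 (IL-8), the main human neutrophil attractant, was at 10.81, 14.44, 15.10 and 13.56 in BORA replicates 1 to 4 and at 9.02, 10.79, 9.96 and 11.32 in EV replicates 1 to 4. BORA replicates 2 to 4 lay more than 2 units above the highest EV tumour, and BORA replicate 1 lay inside the EV range, so the groups overlapped. The group means were 13.48 ± 1.89 and 10.27 ± 1.01 (SD, n = 4 each), and CXCL8 was above background in all 8 tumours. The difference of 3.21 (SE 0.86), a fold of 9.24, was the 9th largest of the 17709 clusters and did not pass (limma adjusted p = 0.188). Over the 7 arrays it was 2.79 (SE 0.79, limma adjusted p = 0.138).

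CXCL1, which also acts through CXCR2, was at 10.75, 12.62, 14.39 and 11.84 in BORA replicates 1 to 4 and at 7.996, 10.63, 10.82 and 10.55 in EV replicates 1 to 4. EV replicates 2 to 4 were tightly grouped, and EV replicate 1 was lower by more than 2 units and below background. BORA replicate 1 lay among EV replicates 2 to 4. The difference was 2.40 (SE 0.82, fold 5.28, limma adjusted p = 0.262) over 8 arrays and 1.73 (SE 0.63, fold 3.32, limma adjusted p = 0.233) over 7. Over 7 arrays it fell to 1.07 without BORA replicate 3.

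CXCL2 and CXCL3, close relatives of CXCL1, were the 2 genes of the 10 whose groups did not overlap, where 4.45% of all clusters were higher in BORA without overlap. CXCL2 was at 7.76, 8.15, 9.13 and 7.82 in BORA replicates 1 to 4 and at 5.82, 7.22, 7.34 and 6.61 in EV replicates 1 to 4. CXCL3 was at 7.37, 7.93, 9.06 and 8.07 in BORA replicates 1 to 4 and at 5.57, 7.21, 7.35 and 6.67 in EV replicates 1 to 4. The gap between the groups was narrow for CXCL3, with BORA replicate 1 at 7.37 and EV replicate 3 at 7.35. For both genes 2 of 4 BORA tumours and 0 of 4 EV tumours were above background, so the sizes of these folds rest on EV levels near background. The differences were 1.47 (SE 0.39, limma adjusted p = 0.187) for CXCL2 and 1.41 (SE 0.44, limma adjusted p = 0.229) for CXCL3, and 1.16 (limma adjusted p = 0.130) and 1.03 (limma adjusted p = 0.189) over 7 arrays. CXCL1, CXCL2 and CXCL3 are similar in sequence, and whether their probes separate them was not tested here.

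CXCL5 and CXCL6, the other neutrophil chemokines among the 10, ranged from 4.61 to 4.90 and from 4.48 to 5.11 in BORA tumours. In EV tumours they ranged from 4.69 to 5.29 and from 4.43 to 4.98. The groups overlapped for both genes. The 95% confidence interval of the difference was -0.55 to 0.21 for CXCL5 and -0.48 to 0.42 for CXCL6 (limma adjusted p = 0.659 and 0.960). Signals this far below background cannot show small changes.

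The promoter regions of these genes are shown because the 6 neutrophil chemokine genes carry the same short run of letters, while only 4 of them had signals that reached background. RefSeq promoters (250 bases before to 50 after the start, GRCh38.p14) matched 8 of the 10 genes; CCL2 and LIF had no entry. Bases -100 to -21 before each start are given 5′ to 3′ on the gene's strand, with matches to GGANTTTCC, letters typical of an NF-kB site, in capitals.
CXCL8 (chr4:73740469-73740548, plus strand): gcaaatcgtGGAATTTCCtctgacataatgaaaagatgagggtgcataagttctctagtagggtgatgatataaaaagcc
CXCL1 (chr4:73869293-73869372, plus strand): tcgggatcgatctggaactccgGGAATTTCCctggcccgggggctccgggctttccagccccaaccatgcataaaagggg
CXCL2 (chr4:74099216-74099295, minus strand): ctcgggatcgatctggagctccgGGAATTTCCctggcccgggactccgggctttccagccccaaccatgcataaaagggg
CXCL3 (chr4:74038710-74038789, minus strand): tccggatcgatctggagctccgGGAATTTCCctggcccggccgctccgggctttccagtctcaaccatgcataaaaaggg
CXCL5 (chr4:73998698-73998777, minus strand): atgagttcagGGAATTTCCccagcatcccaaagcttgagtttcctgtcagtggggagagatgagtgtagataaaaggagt
CXCL6 (chr4:73836578-73836657, plus strand): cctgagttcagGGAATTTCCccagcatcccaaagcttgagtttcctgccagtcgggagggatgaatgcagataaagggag
IL6 (chr7:22727100-22727179, plus strand): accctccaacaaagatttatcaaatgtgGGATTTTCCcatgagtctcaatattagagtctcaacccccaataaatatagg
CCL20 (chr2:227813742-227813821, plus strand): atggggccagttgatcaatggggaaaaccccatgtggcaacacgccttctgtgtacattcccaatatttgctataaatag

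The letters GGANTTTCC, searched on both strands, occurred in 7 of the 8 matched promoters and in 1.64% of all 35116 promoters of the same length. They were chosen after these promoters had been read, so the share is a description. Other forms of an NF-kB site were not searched, so the missing match in CCL20 does not show that its promoter has none. In the 6 CXC genes the match was GGAATTTCC and began between -91 and -77, and in IL6 it was GGATTTTCC and began at -72. The 250 bases before the start were 85.3% identical between CXCL5 and CXCL6, 81.4% between CXCL1 and CXCL3, 70.1% between CXCL1 and CXCL2 and 73.4% between CXCL2 and CXCL3. CXCL8 matched CXCL1 at 44.3%. The AP-1 letters TGANTCA, on both strands, were in 1 of the 8, CXCL8, and in 7.71% of all promoters, and TATAAA on the gene's strand was in 2 of the 8, CXCL8 and CCL20, and in 7.33% of all. A match is not evidence that a factor binds there, and CXCL5 and CXCL6 show that the same letters stood before genes with no signal above background.

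The 6 CXC genes lie in 1 cluster on chromosome 4, where the order of protein-coding genes in the GRCh38.p14 table is CXCL8, CXCL6, PF4V1, CXCL1, PF4, PPBP, CXCL5, CXCL3 and CXCL2. Genes with higher and with flat signals alternated along it. The platelet chemokine genes PF4V1, PF4 and PPBP were below background in all 8 tumours, with differences of -0.30, -0.21 and -0.36. The flanking genes RASSF6 (-0.19) and MTHFD2L (0.28) did not pass either (limma adjusted p = 0.814 and 0.706).

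**Figure D2:**
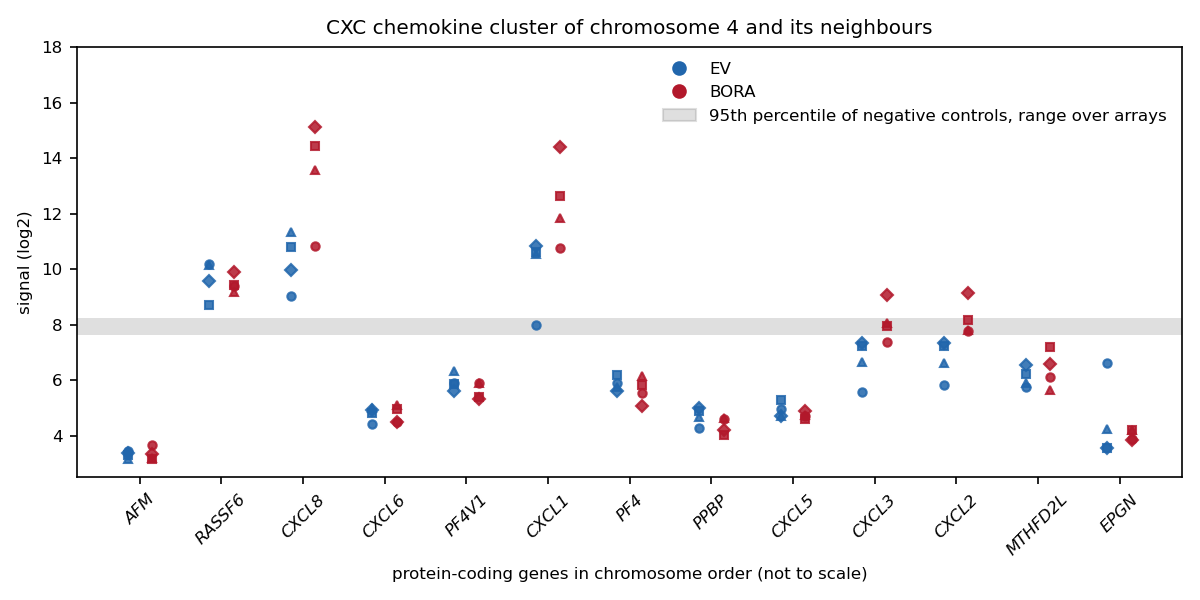
Signal (log2, vertical axis) of the genes of the CXC chemokine cluster and 2 neighbours on each side, in chromosome order and not to scale, in EV (blue) and BORA (red) tumours, with the range of the negative control percentiles in grey. CXCL8, CXCL1, CXCL3 and CXCL2 are higher in BORA replicates 2 to 4, while CXCL6, PF4V1, PF4, PPBP and CXCL5 between them lie below the grey band; levels of different genes are not comparable.

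CCL20 varied most among tumours. It was at 9.76, 14.84, 15.12 and 13.86 in BORA replicates 1 to 4 and at 11.37, 9.63, 7.47 and 12.23 in EV replicates 1 to 4. BORA replicate 1 lay in the middle of the EV range, and EV replicate 3 was below background. The difference of 3.22 (SE 1.29, fold 9.33) was the 8th largest of all clusters and did not pass (limma adjusted p = 0.309). It was 3.62 over 7 arrays (SE 1.26, limma adjusted p = 0.215) and 2.32 over 8 arrays without EV replicate 3.

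CCL2, which recruits monocytes, was at 5.91, 7.23, 8.05 and 6.08 in BORA replicates 1 to 4 and at 5.16, 5.11, 4.62 and 6.05 in EV replicates 1 to 4. Only BORA replicate 3 was above background, so its difference of 1.58 (SE 0.48, limma adjusted p = 0.222) rests on dim signals, as does that of 1.56 over 7 arrays (limma adjusted p = 0.173). BORA replicates 1 and 4 were close to EV replicate 4.

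IL6, a cytokine that activates STAT3, was at 6.42, 11.02, 11.88 and 10.08 in BORA replicates 1 to 4 and at 4.93, 8.58, 6.45 and 8.04 in EV replicates 1 to 4. BORA replicate 1 was the 7th highest of the 8 tumours, while the other BORA tumours were the 3 highest. The difference was 2.85 (SE 1.16, fold 7.22, limma adjusted p = 0.314) over 8 arrays. Over 7 arrays it was 2.16 (SE 1.03, limma adjusted p = 0.348), with a 95% confidence interval of -0.10 to 4.42, and it was 3.30 without BORA replicate 1. IL6 was above background in 3 BORA and 2 EV tumours, and its EV mean of 6.999 lay below background, so the size of its fold rests on dim EV signals.

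LIF, a relative of IL6 that signals through LIFR and gp130, was at 7.97, 8.87, 9.35 and 8.55 in BORA replicates 1 to 4 and at 7.41, 8.07, 8.24 and 6.94 in EV replicates 1 to 4. All 4 BORA tumours and 2 of 4 EV tumours were above background, and BORA replicate 1 lay below EV replicates 2 and 3. The difference of 1.02 (SE 0.35, fold 2.03, limma adjusted p = 0.266) was the smallest of the 8, and it was 0.94 over 7 arrays (SE 0.36, limma adjusted p = 0.248). Over 7 arrays it was 0.53 without EV replicate 4.

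Over the 7 arrays without EV replicate 1, the same 8 genes had values above 0 and again 0 of 10 passed in limma, where 0.435% of all clusters were higher and 0.0791% lower (46.1% had differences above 0). At an unadjusted p under 0.05 limma had 7 of 10 higher, against 7.7% of all clusters (7.62% were lower); IL6 was no longer among them (unadjusted p = 0.0592). The median difference was 1.36, against -0.029 over all clusters. CXCL2 and CXCL3 were again the 2 genes without overlap, where 6.66% of all clusters were higher without overlap. EV replicate 1 was the lowest of the 8 tumours for 6 of the 10 genes, CXCL1, CXCL2, CXCL3, CXCL6, CXCL8 and IL6. For CCL20 it was the 2nd highest of the 4 EV tumours, and leaving it out made that difference larger.

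**Figure D3:**
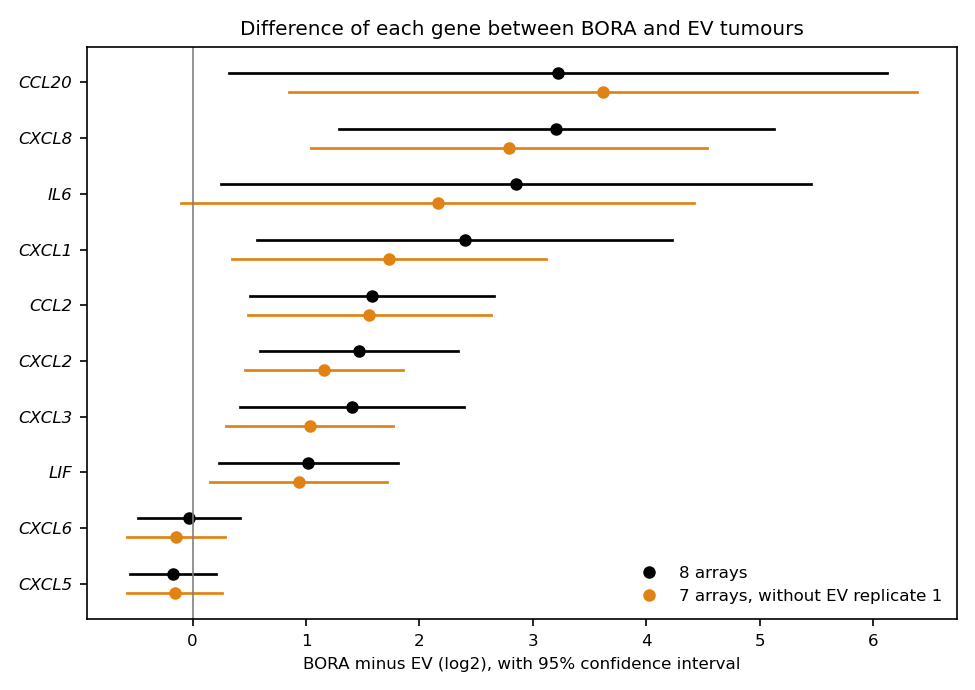
Difference between BORA and EV tumours (log2, horizontal axis) of each gene with its 95% confidence interval from limma, over 8 arrays (black) and over 7 arrays without EV replicate 1 (orange). The intervals of 8 genes lie above 0 over 8 arrays, that of IL6 reaches -0.10 over 7 arrays, and CXCL5 and CXCL6 lie around 0.

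BORA replicate 1 was the lowest BORA tumour for all 8 genes with higher means. Its gap to the mean of BORA replicates 2 to 4 was largest for CCL20 (-4.85), IL6 (-4.57), CXCL8 (-3.56) and CXCL1 (-2.20), followed by CCL2 (-1.21), CXCL3 (-0.98), LIF (-0.96) and CXCL2 (-0.61). Of these 8 genes, it lay outside the EV range only for CXCL2 and CXCL3. BORA replicates 2 to 4, in contrast, lay above all 4 EV tumours for each of the 8, and BORA replicate 3 was the highest of the 8 tumours for each of them. The shares of all clusters with these places of BORA replicates 1 to 4 were not counted. These orders therefore have no background rate beside them and only describe the 8 genes. Since BORA replicate 1 was the lowest BORA tumour, leaving it out raises each of these differences by construction.

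With both EV replicate 1 and BORA replicate 1 left out, 2 of the 10 genes, CXCL8 and IL6, had an adjusted p under 0.05, where 0.333% of all clusters were higher and 0.0508% lower. The difference was 3.68 (SE 0.41, limma adjusted p = 0.00593) for CXCL8 and 3.30 (SE 0.54, limma adjusted p = 0.0426) for IL6, against adjusted p of 0.138 and 0.348 with BORA replicate 1 kept. It was 4.83 (SE 0.91, limma adjusted p = 0.0620) for CCL20 and 2.28 (SE 0.50, limma adjusted p = 0.105) for CXCL1. With BORA replicate 1 alone left out, 0 of 10 passed; CXCL8 was then at 4.10 (limma adjusted p = 0.0720). Leaving out the lowest BORA tumour also narrows the spread of its group, so these p-values depend on the values they test and are given as a description of 3 tumours in each group, not as evidence of a rise.

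**Figure D4:**
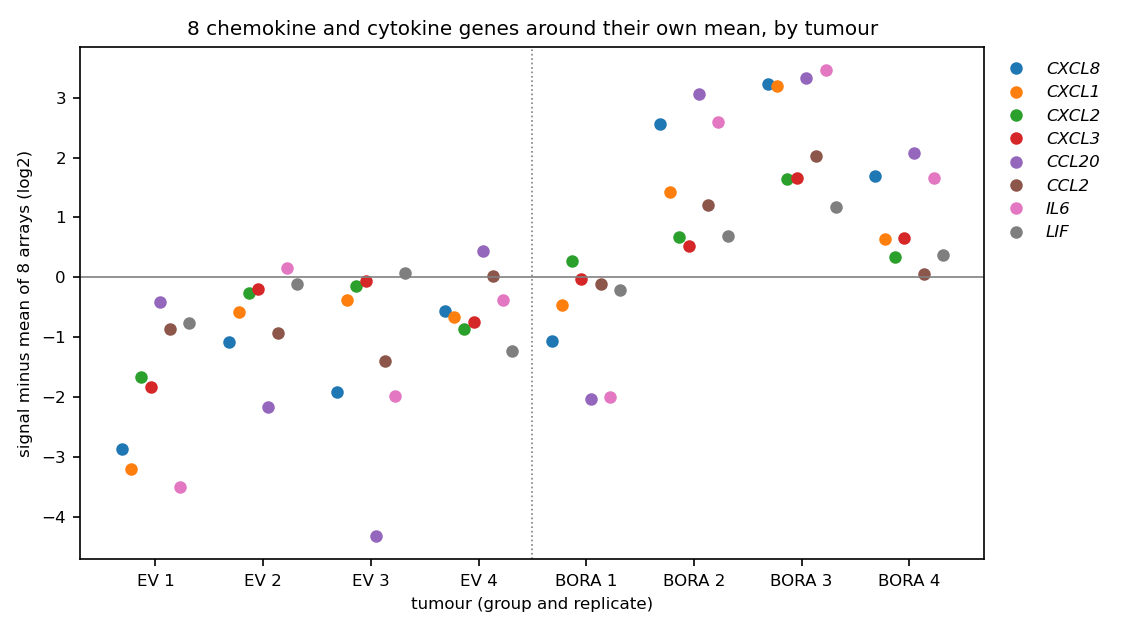
Signal of 8 genes minus each gene's mean over the 8 arrays (log2, vertical axis), by tumour (horizontal axis), with 1 colour per gene. BORA replicates 2 to 4 lie above 0 for each gene, BORA replicate 1 lies at or below 0 for all but CXCL2, and the EV tumours lie mostly below 0.

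The 8 genes varied together across tumours. Pearson's r between pairs of them, over the 28 pairs and 8 tumours, ran from 0.47 (CCL20 and LIF) to 0.98 (CXCL2 and CXCL3) with a median of 0.84, and it ran from 0.49 to 0.97 over 7 tumours. These points share the 2 groups, the low EV replicate 1 and the arrays themselves, so r describes them and is no test. Among 267 clusters of other genes (the 10 left out) with an SD of at least 1 and a mean above background, the 8 most like CXCL8 over the 8 tumours were IRAK2 (r = 0.93), TNFAIP3 (0.93), ITGA5 (0.91), PPP1R3B (0.91), ADAMTS9 (0.91), BST2 (0.90), GDF15 (0.89) and CSF1 (0.87). TNFAIP3, an NF-kB target that encodes the feedback inhibitor A20, was at 11.08, 15.16, 14.76 and 13.72 in BORA replicates 1 to 4 and at 11.58, 12.35, 11.50 and 12.99 in EV replicates 1 to 4. BORA replicate 1 was thus the lowest of all 8 tumours for TNFAIP3. For BST2, an interferon-induced membrane protein, BORA replicate 1 was again the lowest BORA tumour (8.83) but lay above the highest EV tumour (7.72). Over 8 arrays 4.45% of all clusters were higher without overlap. All 4 EV tumours were below background for BST2. Its difference was 1.82 over 8 arrays (limma adjusted p = 0.0852) and 1.80 over 7 (limma adjusted p = 0.0357). It passed over 7 arrays only, where 0.435% of all clusters were higher.

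The chemokine receptor genes CXCR1, CXCR2, CCR2, CCR6, ACKR1 and ACKR2 were below background in all 8 tumours, and 0 of 6 passed in either direction over 8 or 7 arrays in limma. Those with the smallest p over 8 arrays were CXCR2 (-0.40), ACKR2 (-0.17) and CXCR1 (-0.18), none below an unadjusted p of 0.05. IL6ST, the gp130 gene, was at 12.81 in BORA and 12.56 in EV tumours, OSMR at 11.26 and 10.98, and LIFR at 8.17 and 7.97, while IL6R was below background throughout. In the list of IL6 family cytokines and receptors 0 of 11 measured genes passed over 8 or 7 arrays, and its smallest p over 8 arrays were those of IL27 (-0.45), CTF1 (-0.32) and IL11RA (-0.40). Those 3 were lower at an unadjusted p under 0.05 in limma over 8 arrays (7.17% of all clusters were), and 1 of the 11 was over 7 arrays (7.62% of all). IL27 and CTF1 were above background in no tumour, and IL11RA in 1 BORA and 1 EV tumour, so these differences rest on dim signals.

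Most other chemokines were below background, so their values cannot show whether they shared the pattern. Among 8 CXC chemokines without the ELR motif 0 passed, the median difference was -0.21, and CXCL16 alone was above background in any tumour (9.37 and 9.53 in BORA and EV tumours). CXCL17 (-0.65), CXCL12 (-0.65) and CXCL14 (-0.39), with the smallest p in that list, were below background in both groups. Of 10 other CC and CX3C chemokines 0 passed, with CCL8 (-0.43), CCL28 (0.38) and CCL3 (-0.22) at the smallest p; CCL28 was above background in 4 BORA and 3 EV tumours, and the other 9 genes in none.

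Genes of NF-kB signalling had higher means throughout their list. All 14 measured genes of NF-kB subunits, inhibitors and targets had differences above 0, against 46.6% of all clusters, with a median of 0.71, and 0 of 14 passed over 8 or 7 arrays. Of these, NFKBIE and TRAF1 were above background in no tumour. Brighter clusters leaned higher in general: the median difference was 0.115 over clusters above negative controls and -0.026 over all clusters. The 14 also lay above 0 over 7 arrays, where NFKBIE turned below 0 (13 of 14) with quantile normalization, with median centring, and without BORA replicate 2, BORA replicate 4 or EV replicate 3. At an unadjusted p under 0.05, 6 of these 14 were higher and none lower in limma over 8 arrays, where 7.37% of all clusters were higher and 7.17% lower. RELA, the p65 subunit, was at 10.46, 11.01, 11.52 and 10.96 in BORA replicates 1 to 4 and at 9.85, 10.01, 10.12 and 9.71 in EV replicates 1 to 4. Its groups did not overlap, where 4.45% of all clusters were higher in BORA without overlap. The difference of RELA was 1.07 (SE 0.22, limma adjusted p = 0.129), and 1.04 over 7 arrays (limma adjusted p = 0.0864). TNFAIP2 (0.78) and ICAM1 (0.97), an adhesion molecule for leukocytes, came next by p. NFKBIA, the inhibitor IkB-alpha, was at 11.65 in BORA replicate 1 and at 13.38 to 13.98 in the other BORA tumours, and at 13.59 in EV replicate 1. The difference of NFKBIA was 0.64 over 8 arrays (limma adjusted p = 0.593) and 1.01 over 7 (limma adjusted p = 0.325). Without EV replicate 1 and BORA replicate 1, which was the lowest of the 8 tumours for NFKBIA, the differences were 1.503 for NFKBIA, 1.22 for RELA and 1.38 for CSF1, the macrophage growth factor. They had an adjusted p under 0.05 in limma there, with the same dependence on leaving out a low tumour as for CXCL8.

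Some upstream cytokines were measured as well, but TNF and CSF2 had no cluster under those symbols. IL1A was at 10.08, 11.68, 11.93 and 11.04 in BORA replicates 1 to 4 and at 10.77, 10.21, 8.14 and 12.33 in EV replicates 1 to 4. IL1B was at 9.01, 11.24, 11.63 and 11.04 in BORA replicates 1 to 4 and at 8.68, 10.73, 7.51 and 12.65 in EV replicates 1 to 4. For both genes EV replicate 4 was the highest of the 8 tumours, and the groups overlapped. In their list of inducers and partner cytokines 0 of 12 passed over 8 or 7 arrays; the smallest p were those of IL1R1, the IL-1 receptor (1.23, limma adjusted p = 0.184, and 1.27, limma adjusted p = 0.121, over 7 arrays), CSF1 (1.79, limma adjusted p = 0.278, and 1.07, limma adjusted p = 0.145, over 7 arrays) and TNFRSF1A (0.31). IL1R1 was at 8.83 in BORA replicate 1, its highest value in the 8 tumours. Among 10 measured genes of JAK-STAT3 signalling and feedback 0 passed, and at an unadjusted p under 0.05 limma put TYK2, SOCS3, PIAS3 and JUNB higher (4 genes, where 7.37% of all clusters were) and none lower. SOCS3, a feedback inhibitor induced by STAT3, was at 5.27 to 5.74 in BORA and 4.67 to 5.12 in EV tumours, below background in both. STAT3 was at 12.79 and 12.59.

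**Figure D5:**
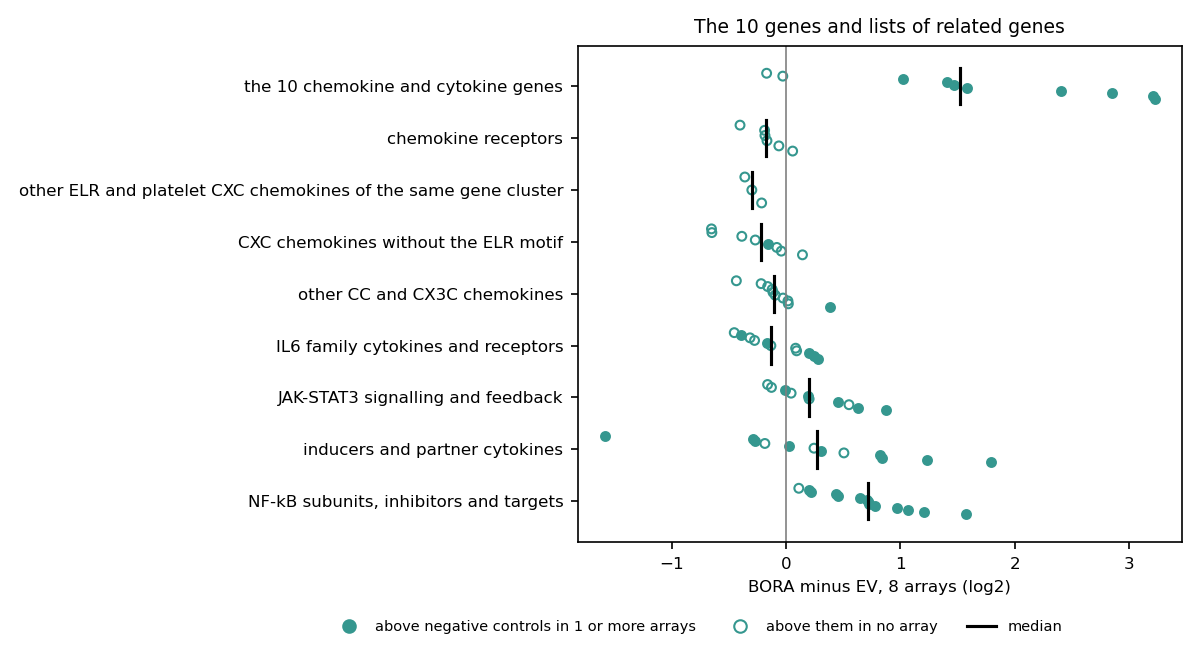
Difference between BORA and EV tumours over 8 arrays (log2, horizontal axis) of each measured gene, by list (vertical axis), with the list median as a black line. Open points are genes above background in no tumour. All 14 NF-kB genes lie right of 0, while the other chemokine lists, mostly open points, have medians below 0.

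Most markers of white blood cells were below background, and those above it differed in direction. Of 7 measured neutrophil markers 5 were above background in no tumour. S100A8 (15.03) and S100A9 (14.51) were above it in EV replicate 1 alone, the tumour with the high squamous signal. Whether neutrophils gave these signals was not tested. The summed level of the list was 6.72 to 7.06 in BORA tumours, 6.99 to 7.52 in EV replicates 2 to 4 and 15.80 in EV replicate 1. Of 8 macrophage and monocyte markers 6, among them CD14, CSF1R and ITGAM, were above background in no tumour, and the summed level was 10.46 to 11.54 in BORA and 10.73 to 11.32 in EV tumours. CD68, a lysosomal protein of macrophages that carried most of that sum, was at 9.9995 in BORA replicate 1, 10.74 to 11.31 in BORA replicates 2 to 4 and 10.17 to 10.73 in EV tumours. It thus shared the low place of BORA replicate 1, and its Pearson's r with CXCL8 over the 8 tumours was 0.76, as a description. That r was not particular to CD68: it was 0.799 for BORA itself and 0.798 for the endothelial marker PECAM1. The difference of CD68 was 0.35 over 8 arrays (limma adjusted p = 0.567). All other measured macrophage and monocyte markers had differences below 0, from -0.11 for MRC1 to -1.01 for CD163 (limma adjusted p = 0.302). CD163 was above background in EV replicate 2 alone.

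The 4 measured pan-leukocyte markers had summed levels of 10.98 to 11.55 in BORA and 9.9996 to 13.003 in EV tumours, with CD53 and LCP1 above background in none. PTPRC (CD45), a phosphatase of white blood cells that carried most of that sum, was at 9.68 to 10.96 in BORA tumours, 12.19 to 12.94 in EV replicates 2 to 4 and 6.91 in EV replicate 1. Its difference was -0.68 over 8 arrays (limma adjusted p = 0.803). Over 7 arrays it was -2.07 (limma adjusted p = 0.0194), where 0.0791% of all clusters passed as lower. LAPTM5, a lysosomal protein of blood cells, was at 9.80 to 10.10 in BORA and 7.25 to 10.07 in EV tumours, with a difference of 1.21 over 8 arrays and 1.53 over 7 (limma adjusted p = 0.356 and 0.192). Pearson's r of PTPRC with CXCL8 over the 8 tumours was 0.070, as a description. The summed level of the 6 endothelial markers was 8.89 to 9.48 in BORA and 8.09 to 8.85 in EV tumours, without overlap. BORA replicate 1 (9.40) lay inside the BORA range. PECAM1, an adhesion molecule of endothelial cells, was at 7.78 to 8.55 in BORA and 5.90 to 7.54 in EV tumours. CDH5, their cadherin, was at 7.03 to 8.30 and 4.48 to 6.56. Both were higher without overlap over 8 arrays, where 4.45% of all clusters were. The other 4 endothelial markers were above background in no tumour and had lower means in BORA tumours: CLDN5 (-0.49), TEK (-0.49), VWF (-0.33) and KDR (-0.06). None of the 6 passed over 8 arrays in limma. The 8 squamous markers had a summed level of 15.03 in BORA replicate 1 and 12.86 to 14.43 in BORA replicates 2 to 4. The part of these cells in the results was not tested. Host cells are murine and human probes read their RNA only in part, so these signals do not measure how many host cells a tumour held.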

How the data were processed

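The authors deposited 1 value per probe set and array. Per the submitters' processing notes, the software was Affymetrix Expression Console; version, normalization and genome build: not given in the sources used here. No label states the log base; the deposited values were read as log2 from their range. The row identifiers are those of a different Affymetrix human design than the Human Gene 1.0 ST array that the series text states. The 17709 clusters with a gene symbol were fitted with limma 3.58.1 (lmFit, eBayes; R 4.3.3), BORA minus EV, without covariates, further normalization or filter, with Benjamini-Hochberg adjustment over all of them and a threshold of 0.05. No array was imputed. The genes, lists and tests were chosen with earlier results of these data known. Named were the 10 genes, genes of each related list that passed or else up to 3 with the smallest p, the 8 genes most like CXCL8, and further genes named after their values were seen (among them NFKBIA, CSF1, IL1A, IL1B, STAT3, SOCS3, CXCL16 and the flanking genes). Of 83 related genes 74 were measured. A list's summed level is the log2 of summed linear signals. The test was run on simulated data: for 8 arrays it recovered 45.9% of the 61 clusters shifted by 1 (log2), 98.5% of the 68 shifted by 2 and 98.6% of the 71 shifted by 4. The simulated spreads were drawn from limma's fit over all clusters, not from the 10 genes. These shares therefore do not hold for genes as variable as CXCL8 (SE 0.86), IL6 (SE 1.16) and CCL20 (SE 1.29). Their differences of 3.21, 2.85 and 3.22 did not pass. Replicate numbers did not pair the tumours (see the dependence on processing). The number of arrays limits the precision.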

Additional observations from a re-analysis of the deposited data

Results flagged for a closer look

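Of the 20 sets of 4 tumours tested for a value far from the rest (10 genes in 2 groups), 1 stood out. CXCL1 was at 7.996 in EV replicate 1, while EV replicates 2 to 4 lay between 10.55 and 10.82; the gap was 0.902 of the whole range, above the critical 0.829 for 4 samples. Chance gives about 1 such set in 20. The same tumour was the lowest EV tumour for CXCL2, CXCL3, CXCL6, CXCL8 and IL6 without a gap of that size.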

How the results depend on the processing

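Over 8 arrays, 0 of 10 genes passed under each alternative, and CXCL8, CXCL1, CXCL2, CXCL3, CCL20, CCL2, IL6 and LIF kept values above 0 wherever they were fitted. The median of the 10 genes was 1.52 and became 2.40 with clusters above the median only and 2.85 with clusters above negative controls only, since dim genes drop out; over 7 arrays the latter gave 2.16. Over 7 arrays 0 to 2 genes passed when 1 further array was left out, and 0 to 3 of the 74 related genes, the highest counts without BORA replicate 1. With BORA replicate 1 left out there, 0.333% of all clusters were higher and 0.0508% lower. The replicate numbers did not pair the tumours (correlations of deviations -0.11 to 0.071), and with the number as a block 1 cluster passed over 8 arrays. Over 7 arrays the block takes BORA replicate 1 out of the comparison. In that fit 1 of 10 genes (CXCL8, 3.68, limma adjusted p = 0.0208) and 2 related genes passed, where 74 of all 17709 clusters were higher and 5 lower. The 18 clusters called over 8 arrays became 48 with array weights, 9 above the median, and 1 to 91 with 1 array left out; the 91 over 7 arrays became 25 to 152. CXCL6 turned to 0.13 with quantile normalization and ranged from -0.15 to 0.067 with 1 array left out, and over 7 arrays it was 0.0011 after quantile normalization; CXCL5 ranged from -0.26 to 0.037 over 7 arrays with 1 further array left out. Both lie below background. The cause of these shifts was not tested. Signal over background limits CXCL2, CXCL3, CCL2, IL6 and LIF, whose EV means lay below it.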

Other observations

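CCL20 and IL1A had the same order among the 4 EV tumours, while CXCL1 had another. EV replicate 4 had the highest IL1A (12.33), IL1B (12.65), CCL20 (12.23) and CXCL8 (11.32) of the 4 EV tumours, and EV replicate 3 had the lowest IL1A (8.14), IL1B (7.51) and CCL20 (7.47). CXCL1 differed little between these tumours, at 10.55 in EV replicate 4 and 10.82 in EV replicate 3. Over all 8 tumours Pearson's r of IL1A was 0.86 with CCL20 and 0.33 with CXCL1, and that of IL1B was 0.73 and 0.50. The genes were paired after their values were seen, the tumours share 2 groups, and these values are a description.

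IL1RN, which encodes the IL-1 receptor antagonist, was at 11.93 in EV replicate 1 and between 3.53 and 4.66 in the other 7 tumours. That tumour, which also held the high squamous signal, had the lowest CXCL8 (9.02) and IL6 (4.93) of the 8. Its CCL20 (11.37) lay inside the range of the other EV tumours, and its NFKBIA (13.59) was the highest of the EV tumours. These values come from 1 tumour, and a link between them was not tested.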
